A study of Mus musculus with 18 samples.

Results

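The genes described here are 9 markers of mature, myelin-forming oligodendrocytes, taken by symbol from the 55421 genes of a count table of mouse striatum: Mbp, Mog, Mag, Mobp, Cnp, Opalin, Myrf, Ermn and Aspa. All 9 were found, and all 9 passed the filter on low counts that left 20914 genes for testing. The rule names genes and uses no measured value, but the genes and all other lists were chosen with earlier results of these data known. RNA came from whole dissected striatum, with 1 library for each of 18 mice aged 12 to 14 months, given by the labels as strain C57BL/6. The WT group (n = 5) carried neither altered allele. The zQ175 group (n = 5) carried the zQ175 allele, an expanded CAG repeat placed with human sequence in the first exon of the animals' own Htt gene to model Huntington's disease. The CK2a'(+/-) group (n = 3) lacked 1 allele of Csnk2a2, which encodes the kinase subunit CK2 alpha prime, and the zQ175:CK2a'(+/-) group (n = 5) carried both alterations. The CK2 alpha prime allele of both groups came from a line on a mixed 129/SvEv and C57BL/6J background that, by the study's methods, was bred to WT and zQ175 mice over many generations, and the methods give all mice as C57BL/6J. Both alleles are carried in every cell of the animal, so no group limits its change to oligodendrocytes. The study asked how loss of 1 CK2 alpha prime allele alters the zQ175 striatum.

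Oligodendrocytes of the central nervous system wrap axons in myelin, a stack of compacted plasma membrane that speeds conduction and feeds the axon it covers. Myelin-forming cells differentiate from precursors under transcription regulators of the Sox, Olig and Myrf families, and mature cells then make a small set of myelin proteins in very large amounts. In the striatum, bundles of myelinated fibres of the internal capsule run between the neurons, so a dissected striatum holds oligodendrocyte RNA beside neuronal RNA. In bulk tissue of this kind, fewer cells of a type and less RNA per cell cannot be told apart.

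Totals ran from 13612381 to 22702547 assigned reads per library, with a median of 18005044. Csnk2a2 averaged 31.6 ± 2.26 (SD, n = 5) CPM (counts scaled to library size) in WT, 35.0 ± 2.29 (n = 5) in zQ175, 16.7 ± 1.78 (n = 3) in CK2a'(+/-) and 17.6 ± 1.64 (n = 5) in zQ175:CK2a'(+/-), so every group matched its CK2 alpha prime label. Several libraries stood apart in markers of neighbouring tissue. The summed level of 6 choroid plexus genes was 2078 CPM in WT replicate 1, 1727 in WT replicate 3, 979 in CK2a'(+/-) replicate 1 and 3094 in zQ175:CK2a'(+/-) replicate 2, against 12.4 to 22.6 in the other mice. The summed level of 7 thalamic neuron genes was 1498 CPM in zQ175 replicate 1 and at most 760 elsewhere, and 7 cortical excitatory neuron genes reached 350 CPM in zQ175 replicate 5 and 181 in zQ175 replicate 1. Sex is not given per mouse in the labels. By the study's methods WT had 4 females and 1 male, and zQ175 had 2 females and 3 males. CK2a'(+/-) had 1 female and 2 males, and zQ175:CK2a'(+/-) had 4 females and 1 male. Xist, the long noncoding RNA of the inactive X chromosome, was above 500 CPM in 4 of 5 WT, 2 of 5 zQ175, 1 of 3 CK2a'(+/-) and 4 of 5 zQ175:CK2a'(+/-) libraries.

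Promoter sequence was available for 7 of the 9 genes, in 9 windows, from RefSeq on build GRCm38.p6. The 250 bases before the start of Mobp, Cnp, Mag and Mog are shown because Mobp and Cnp were among the genes that passed the test below, while Mag and Mog are surface proteins of the same membrane that did not. Capitals mark matches on either strand to CTGGCAC or CTGGTAC, a core bound by the regulator Myrf, and to AACAAAG or AACAATG, a core of Sox factors. Mobp lies at chr9:120149492-120149741 on the plus strand, Cnp at chr11:100574689-100574938 on the plus strand, Mag at chr7:30914864-30915113 on the minus strand and Mog at chr17:37023399-37023648 on the minus strand.
Mobp: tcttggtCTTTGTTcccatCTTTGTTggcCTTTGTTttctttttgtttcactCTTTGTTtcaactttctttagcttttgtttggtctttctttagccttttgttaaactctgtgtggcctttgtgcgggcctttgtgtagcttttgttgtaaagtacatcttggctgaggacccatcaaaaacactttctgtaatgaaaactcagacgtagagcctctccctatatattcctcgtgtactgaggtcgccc
Cnp: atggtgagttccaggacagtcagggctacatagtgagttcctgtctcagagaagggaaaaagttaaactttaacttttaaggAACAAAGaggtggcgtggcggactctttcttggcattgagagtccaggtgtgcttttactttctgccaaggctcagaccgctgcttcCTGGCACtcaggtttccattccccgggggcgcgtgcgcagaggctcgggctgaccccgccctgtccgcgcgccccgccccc
Mag: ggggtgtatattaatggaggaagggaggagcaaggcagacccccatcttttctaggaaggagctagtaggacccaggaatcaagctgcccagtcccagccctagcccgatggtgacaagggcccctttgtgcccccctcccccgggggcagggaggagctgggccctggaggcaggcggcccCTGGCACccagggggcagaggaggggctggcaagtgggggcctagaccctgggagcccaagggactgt
Mog: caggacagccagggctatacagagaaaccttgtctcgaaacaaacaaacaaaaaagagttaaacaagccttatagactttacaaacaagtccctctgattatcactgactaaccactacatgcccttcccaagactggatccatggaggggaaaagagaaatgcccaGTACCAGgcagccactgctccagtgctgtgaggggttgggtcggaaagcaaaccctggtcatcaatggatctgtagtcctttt
The Mobp window held 4 copies of the Sox core on its minus strand, first bases 243, 231, 221 and 198 before the start, and no Myrf core. The Cnp window held 1 of each, the Sox core starting 168 and the Myrf core 81 bases before the start. In Mag and Mog the Myrf core began 68 and 83 bases before the start, and neither held a Sox core. Mag has 3 windows in RefSeq, of which the first listed is shown. The same core lies 9 bases before the start of the second, and the third holds none. In windows reaching 50 bases past the start, the Myrf core was found in 5 of the 9 windows, in the genes Mog, Mag, Cnp and Opalin, and the Sox core in 2 of 9, in Mobp and Cnp, and 7.1% and 9.36% of 32851 RefSeq promoters of the same length held them. Ermn and Aspa matched neither core. These matches describe the letters in the windows and were not tested for binding.

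Per base of exon, the 9 genes spanned a wide range of levels in WT striatum. Mbp, which compacts the cytoplasmic faces of the membrane, was the highest at 331 ± 40.0 (SD, n = 5) RPKM (reads scaled to exon length and library size) and ranked 53 of 20914 genes. Mobp, another small basic protein of compact myelin, followed at 179 ± 27.5 RPKM, and Cnp, an enzyme of the cytoplasmic channels of myelin, at 92.7 ± 14.4. Mag, the adhesion protein that faces the axon, at 43.3 ± 8.71 RPKM, and Ermn, an actin-associated protein of late oligodendrocytes, at 39.8 ± 4.40, overlapped between mice, and no other neighbours in the order did. Below them came Mog, an immunoglobulin-type protein of the outermost lamella, at 26.2 ± 4.73 RPKM, Myrf at 16.8 ± 2.50, the sialoglycoprotein Opalin at 11.4 ± 3.03 and Aspa, the enzyme that splits N-acetylaspartate, at 3.64 ± 0.63. The CPM and log2 values that follow compare a gene with itself across mice and not genes with each other.

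In zQ175 striatum Mbp, Mobp and Cnp, the highest of these genes per base of exon in WT, were called lower than in WT. Mbp fell by 33.3%, Mobp by 34.2% and Cnp by 25.3%, and these 3 of the 9 genes passed the test, all lower (edgeR quasi-likelihood test, Benjamini-Hochberg adjusted p under 0.1), where 0.712% of the 20914 genes tested were called lower and 1.1% in either direction. The other 6 did not pass, though their fold changes were also below 0, as were those of 49.4% of all genes. The median over the 9 was -0.37 on the log2 scale, against 0.0042 over all genes tested. An unadjusted p under 0.05 was reached by 5 of the 9 and by 13.9% of all genes. The plot of levels by mouse shows the values behind these comparisons.

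**Figure D1:**
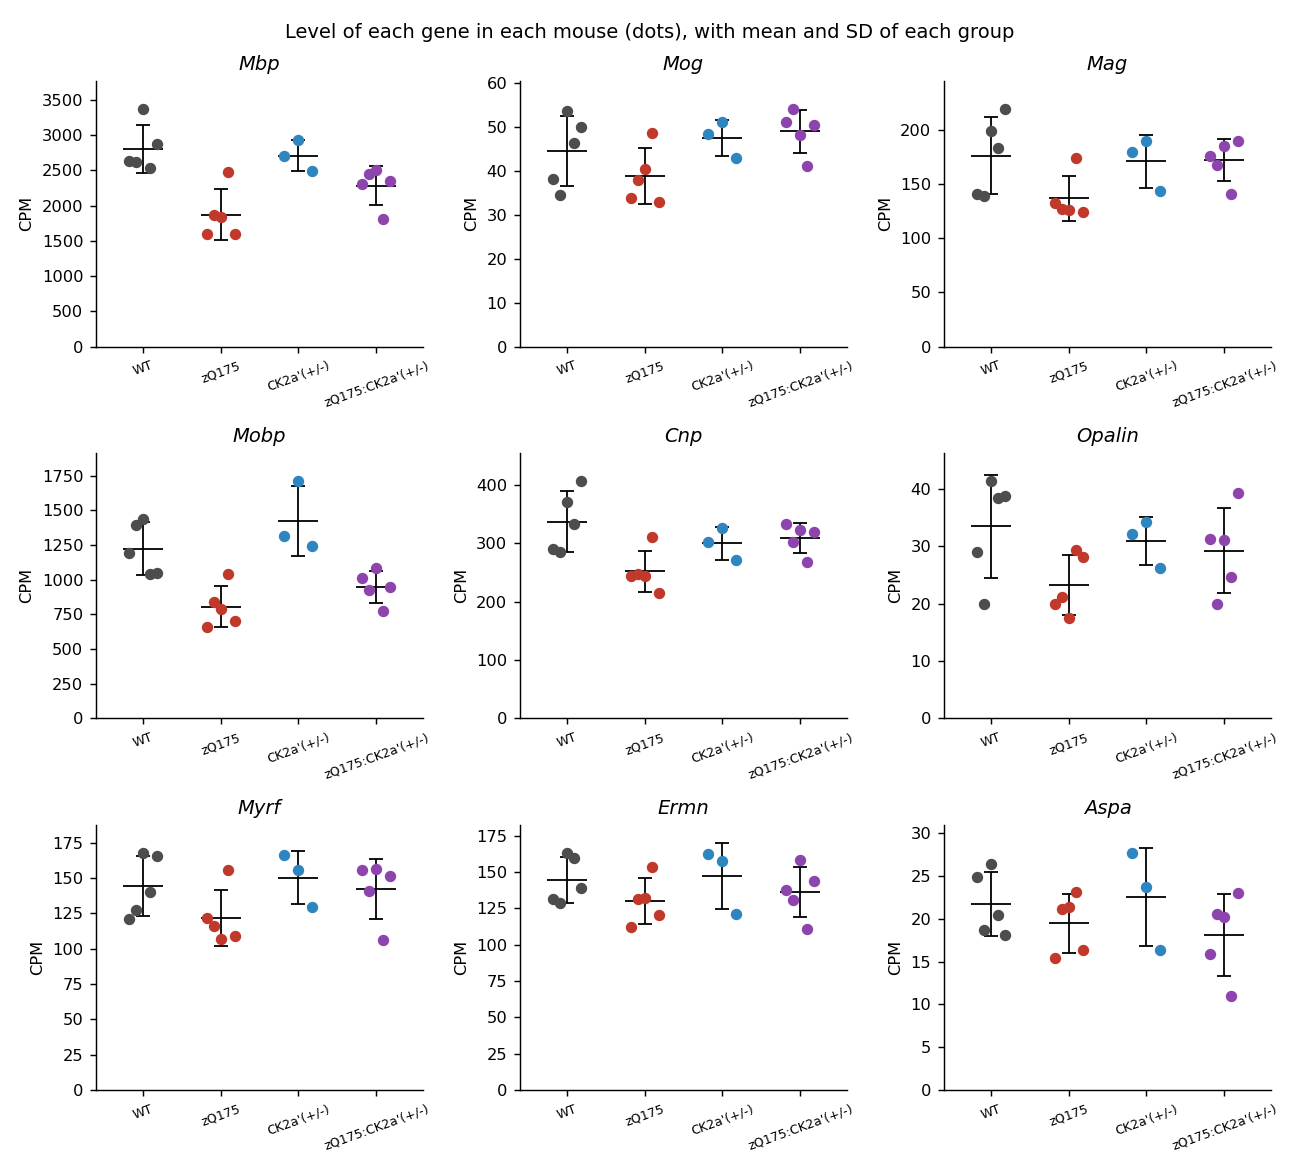
Level in CPM (y axis, from 0) of each of the 9 genes in each of the 18 mice, grouped by genotype, with a dot per mouse and bars for the mean and SD of each group. The zQ175 mice lay below every WT mouse for Mbp (1590 to 2470 against 2530 to 3364 CPM) and Mobp (660 to 1038 against 1043 to 1440 CPM), and the groups overlapped for the other 7 genes.

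Mbp (ENSMUSG00000041607, chr18:82475146-82585637 on build GRCm38, plus strand, 13 exon blocks) was read at 2633, 2617, 3364, 2530 and 2879 CPM in WT replicates 1 to 5. In zQ175 replicates 1 to 5 it was read at 1590, 1866, 1837, 2470 and 1596 CPM. Every zQ175 mouse was below every WT mouse, though zQ175 replicate 4 lay close to the lowest WT mouse, replicate 4 of that group. CK2a'(+/-) mice had 2707, 2930 and 2494 CPM, within the span of WT but for replicate 3, and zQ175:CK2a'(+/-) mice had 2301, 2446, 2498, 1806 and 2348 CPM. These last 5 mice also lay below all WT mice, and 4 of them lay above 4 of the zQ175 mice. The log2 fold change of zQ175 over WT was -0.58 ± 0.12 (SE) with an edgeR adjusted p of 0.0469. Groups that did not overlap, with the first lower, were seen for 1.19% of all genes tested.

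Mobp (ENSMUSG00000032517, chr9:120149707-120181484, plus strand, 8 exon blocks) was read at 1194, 1398, 1440, 1043 and 1049 CPM in WT and at 660, 840, 790, 1038 and 705 CPM in zQ175. Its highest zQ175 value, again replicate 4, lay just under the lowest WT value. CK2a'(+/-) mice had 1317, 1710 and 1242 CPM and zQ175:CK2a'(+/-) mice 1011, 924, 1081, 778 and 949 CPM. The CK2a'(+/-) mice thus held the highest Mobp value of all 18, while 4 of 5 zQ175:CK2a'(+/-) mice lay under every WT mouse. The log2 fold change of zQ175 over WT was -0.60 ± 0.13 (SE), with an edgeR adjusted p of 0.0484. A gene on the same strand, Gm38642, shares 79 exon bases with Mobp, or 1.15% of its exons, and averaged 1.57 CPM.

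Cnp (ENSMUSG00000006782, chr11:100574904-100591729, plus strand, 6 exon blocks) was read at 290.2, 285, 371, 334 and 406 CPM in WT and at 244, 248, 244, 310.1 and 216 CPM in zQ175. Here the groups overlapped by 1 mouse, zQ175 replicate 4, which lay above WT replicates 1 and 2. The log2 fold change was -0.42 ± 0.11 (SE) and the edgeR adjusted p 0.0845. CK2a'(+/-) mice had 302, 327 and 271 CPM and zQ175:CK2a'(+/-) mice 334, 302, 323, 268 and 320.0 CPM, and in each of these groups 1 mouse lay below the WT span and the others within it. Cnp shares 154 exon bases, 4.23% of its exons, with the antisense neighbour Dnajc7, which averaged 121 CPM, and the sources do not state whether counting used the strand.

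The genes of the surface proteins Mag, Opalin and Mog did not pass the test, though the fold change of Opalin was larger than that of Cnp. Whether surface proteins differed from the others as a class was not tested. Mag (ENSMUSG00000036634, chr7:30899176-30914873, minus strand, 12 exon blocks) was read at 141, 139, 199, 184 and 219 CPM in WT and at 132, 127, 126, 174 and 124 CPM in zQ175. Apart from zQ175 replicate 4, the zQ175 mice lay below all WT mice, and the log2 fold change was -0.37 ± 0.13 (SE) with an edgeR adjusted p of 0.195. Opalin (ENSMUSG00000050121, chr19:41061710-41077113, minus strand, 6 exon blocks) was read at 29.0, 19.9, 41.3, 38.4 and 38.8 CPM in WT and at 19.9, 21.1, 17.5, 29.4 and 28.1 CPM in zQ175. WT replicate 2 was as low as the zQ175 mice, and the log2 fold change was -0.53 ± 0.19 (SE) with an edgeR adjusted p of 0.218. Mog (ENSMUSG00000076439, chr17:37010743-37023398, minus strand, 8 exon blocks) was read at 38.2, 34.5, 53.8, 46.5 and 50.0 CPM in WT and at 34.0, 38.0, 40.4, 48.8 and 32.9 CPM in zQ175. The 2 groups were interleaved, with a log2 fold change of -0.20 ± 0.12 (SE) and an edgeR adjusted p of 0.495.

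The regulator, the cytoskeletal protein and the enzyme also did not pass. Myrf (ENSMUSG00000036098, chr19:10208272-10240748, minus strand, 26 exon blocks), the membrane-bound transcription factor that switches on myelin genes, averaged 144 ± 21.4 CPM (SD, n = 5) in WT and 122 ± 19.9 (n = 5) in zQ175. Its log2 fold change was -0.24 ± 0.12 (SE, edgeR adjusted p = 0.386), and zQ175 replicate 4 at 156 CPM stood above 3 of the WT mice. Ermn (ENSMUSG00000026830, chr2:58045113-58052864, minus strand, 3 exon blocks) averaged 145 ± 16.0 CPM in WT and 130 ± 15.8 in zQ175, a log2 fold change of -0.15 ± 0.11 (SE, edgeR adjusted p = 0.562). Aspa (ENSMUSG00000020774, chr11:73304992-73329596, minus strand, 10 exon blocks) was the least abundant, at 18.1 to 26.3 CPM in WT and 15.4 to 23.1 CPM in zQ175. Its values were interleaved between the groups, with a log2 fold change of -0.16 ± 0.18 (SE, edgeR adjusted p = 0.757). Ermn shares 237 exon bases, 6.52% of its exons, with Galnt5 on the other strand, which averaged 0.05 CPM.

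These 6 genes also overlapped WT in both groups that lacked a CK2 alpha prime allele. Mog was read at 42.98 to 51.1 CPM in CK2a'(+/-) (n = 3) and 41.2 to 54.1 CPM in zQ175:CK2a'(+/-) (n = 5), Mag at 144 to 190.2 and 141 to 189.9 CPM, and Opalin at 26.2 to 34.3 and 19.9 to 39.4 CPM. Myrf was read at 129 to 166 CPM in CK2a'(+/-) and 106 to 156 CPM in zQ175:CK2a'(+/-), Ermn at 121 to 162 and 111 to 158 CPM, and Aspa at 16.4 to 27.7 and 10.9 to 23.0 CPM. The lowest Myrf, Ermn and Aspa values of the zQ175:CK2a'(+/-) group all came from replicate 4.

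The calls in zQ175 depended on which libraries entered. DESeq2 called the same 3 genes (adjusted p 0.000792 for Mbp, 0.00188 for Mobp and 0.0159 for Cnp, with 2.77% of all genes called lower). In edgeR, none of the 9 was called without WT replicate 1 (6 with an unadjusted p under 0.05), WT replicate 3 (5) or zQ175 replicate 5 (5). Over all genes, 10 were called without WT replicate 1 and 0 without WT replicate 3 or zQ175 replicate 5, against 230 with all libraries, and 2387, 2367 and 2566 had an unadjusted p under 0.05, against 2906. Only Mbp was called without zQ175 replicate 1 (77 over all genes), and 5 of the 9 were called without WT replicate 2, Mag and Opalin being added, as calls over all genes went to 587. Cnp lost its call, with Mbp and Mobp kept, in the fits without WT replicate 4 or 5, zQ175 replicate 2 or 3, CK2a'(+/-) replicate 1 or 2 and zQ175:CK2a'(+/-) replicate 1, 3 or 5. All 9 fold changes stayed below 0 whichever single library was left out. Over these fits Mbp ran from -0.71 to -0.51, Mobp from -0.72 to -0.54 and Cnp from -0.51 to -0.34. Fitting the WT and zQ175 mice alone in edgeR gave no call among the 9 or among all genes, with an adjusted p of 0.149 for Mbp and Mobp and 5 of the 9 at an unadjusted p under 0.05.

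Markers of other cells and of neighbouring tissue differed between the same groups. The 12 striatal projection neuron genes, whose summed level was 3204 to 7466 CPM in WT and 1818 to 3613 CPM in zQ175, were all below 0 on the log2 scale and 3 passed the test, Adora2a (-1.12), Penk (-1.002) and Ppp1r1b (-0.85), with edgeR adjusted p of 0.0557, 0.0610 and 0.0765. The 7 cortical excitatory neuron genes were all above 0 (summed level 57.4 to 108 CPM in WT, 101 to 350 CPM in zQ175), with Tbr1 called higher (1.27, edgeR adjusted p = 0.0902). The 7 thalamic genes were also all above 0 with none called (summed level 163 to 513 CPM in WT, 135 to 1498 CPM in zQ175; Tcf7l2 1.18, edgeR adjusted p = 0.426). The 6 choroid plexus genes were all below 0 with none called in edgeR (15.3 to 2078 CPM in WT, 13.2 to 22.4 CPM in zQ175; Ttr -7.24, edgeR adjusted p = 0.161, called by DESeq2). Of 10 astrocyte genes none passed and 9 were below 0 (median -0.12; Aldoc -0.26, edgeR adjusted p = 0.194). Of 9 microglia genes 1 was called lower (C1qa -0.64, 0.0707) and 9 were below 0, with a median of -0.15. Of 8 endothelial and pericyte genes none passed and 6 were below 0 (Vtn -0.33, 0.237). The part of these lists in the myelin values was not tested. The values without the libraries concerned follow.

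Leaving out the 4 libraries high in choroid plexus genes (chosen after seeing the data; 3 WT, 5 zQ175, 2 CK2a'(+/-) and 4 zQ175:CK2a'(+/-) mice left) gave log2 fold changes of zQ175 over WT of -0.52 ± 0.13 for Mbp, -0.53 ± 0.15 for Mobp and -0.44 ± 0.13 for Cnp (SE), with no gene of the 9 called in edgeR (adjusted p 0.496 for each of the 3; 5 of the 9 at an unadjusted p under 0.05). In that fit 1 of 21312 genes was called and 1658 had an unadjusted p under 0.05. Of the WT mice left out, replicate 3 was among the highest 5 of 18 for all 9 genes. Replicate 1 was among the highest 5 for 2 and the lowest 5 for 2. Leaving out zQ175 replicates 1 and 5, the mice with the most thalamic and cortical RNA, gave -0.45 ± 0.12 for Mbp and -0.46 ± 0.14 for Mobp (SE), again with none of the 9 called (edgeR adjusted p 0.245 and 0.267; 4 of the 9 at an unadjusted p under 0.05). Over all 20688 genes of that fit 0 were called and 2113 had an unadjusted p under 0.05. The 2 mice left out were also each among the lowest 5 of 18 for 8 of the 9 genes. Among libraries high in Xist alone (4 WT, 2 zQ175), the values were -0.39 ± 0.15 for Mbp and -0.39 ± 0.16 for Mobp (SE), with no gene of any kind called in edgeR and 3 of the 9 at an unadjusted p under 0.05, beside 1537 of 22719 genes. The 2 zQ175 mice high in Xist were replicates 2 and 4, and replicate 4 lay above its group median for all 9 genes. The libraries low in Xist hold 1 WT mouse and 3 zQ175 mice. Their values, -0.66 for Mbp and -0.74 for Mobp, rest on that 1 WT mouse, whose spread the fit takes from the other groups, and are given as a description. With Xist level as a covariate over all 18 mice, Mbp (-0.57, edgeR adjusted p = 0.0589) and Mobp (-0.59, 0.0666) were called and Cnp (-0.40, 0.115) was not. Aspa did not stay below 0, moving to 0.03 without the choroid plexus libraries, 0.01 without the 2 zQ175 mice and 0.09 among libraries high in Xist.

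The comparisons of zQ175:CK2a'(+/-) and CK2a'(+/-) with WT share the WT mice with the one above, and that of zQ175 with zQ175:CK2a'(+/-) shares the zQ175 mice, so their values stand side by side and are not separate evidence. The comparison of zQ175:CK2a'(+/-) with CK2a'(+/-) uses neither the WT nor the zQ175 mice for its fold change, but shares its mice with the others and the estimate of spread with all. In zQ175:CK2a'(+/-) against WT, none of the 9 genes passed the edgeR test, where 0.0143% of all genes did (3 genes), and DESeq2 called 0.725% of genes and none of the 9. Mbp was -0.30 ± 0.11 (SE, edgeR adjusted p = 0.433) and Mobp -0.37 ± 0.13 (SE, adjusted p = 0.392), and these 2 alone had an unadjusted p under 0.05, which 9.13% of genes reached. Although it was not called, Mbp did not overlap between the groups (1806 to 2498 against 2530 to 3364 CPM), as was so with the first group lower for 0.899% of genes. Between the same groups all 12 striatal projection neuron genes were below 0 (median -0.44, 6 with an unadjusted p under 0.05, none called in edgeR), as were all 7 thalamic genes (median -0.24, 0 with such a p). Their part in the myelin values was not tested. The other 7 lay between -0.26 for Aspa and 0.14 for Mog (edgeR adjusted p from 0.720 to 0.984). Mog averaged 49.0 ± 4.85 CPM (SD, n = 5) in zQ175:CK2a'(+/-) and 44.6 ± 8.06 in WT, and Myrf 142 ± 21.1 and 144 ± 21.4, so for these the group means lay within 1 SD of each other.

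Between zQ175 mice with both CK2 alpha prime alleles and with 1, none of the 9 genes passed the test. The background was 0.0143% of genes called by edgeR (3 genes) and 0.145% by DESeq2, which also called none of the 9. On the log2 scale zQ175 over zQ175:CK2a'(+/-) was -0.28 ± 0.11 for Mbp, -0.34 ± 0.12 for Mog, -0.33 ± 0.13 for Mag and -0.29 ± 0.11 for Cnp (SE), and these 4 had an unadjusted p under 0.05 (0.0219, 0.0120, 0.0175 and 0.0110 in edgeR, adjusted p 0.697, 0.637, 0.677 and 0.637). Over all genes, 6.27% did so. Between the same groups no marker gene of cortical neurons, thalamic neurons or choroid plexus was called in edgeR, but each list lay to 1 side of 0. All 7 tested cortical neuron genes were above 0 (median log2 fold change 0.95, 4 with an unadjusted p under 0.05), as were all 7 thalamic genes (median 1.00, 2 with such a p), and all 6 choroid plexus genes were below 0 (median -3.21, 4 with such a p). DESeq2 called Tbr1 (adjusted p = 0.0196), Slc17a7 (0.0995) and Ttr (0.0852). Of 9 microglia genes 8 were below 0 (median -0.21) and 4 had an unadjusted p under 0.05, the same counts as for the 9 myelin genes, and 11 of 12 striatal projection neuron genes were below 0 (median -0.19, 0 with such a p). Their part in the values of the 9 genes was not tested. Mobp (-0.23), Opalin (-0.34), Myrf (-0.22) and Ermn (-0.07) were below 0 without reaching it and Aspa was at 0.10. Smaller sets of libraries moved the values in both directions. Leaving out the libraries high in choroid plexus genes gave -0.26 for Mbp, -0.30 for Cnp and -0.44 for Opalin. Without zQ175 replicates 1 and 5, none of the 9 had an unadjusted p under 0.05, with Mbp at -0.15 ± 0.12 (SE). Those 2 mice were each among the lowest 5 of 18 for 8 of the 9 genes. Among libraries high in Xist Mbp was at -0.06 ± 0.15 (SE). That set holds zQ175 replicates 2 and 4 and zQ175:CK2a'(+/-) replicates 1 to 4. For all 9 genes, replicate 4 lay above its group median in zQ175 and below it in zQ175:CK2a'(+/-).

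Loss of 1 CK2 alpha prime allele on its own came with no called myelin gene. Against WT, CK2a'(+/-) mice showed none of the 9 past the edgeR test (background 0.0143%, 3 genes) and none with an unadjusted p under 0.05, which 4.48% of genes reached, and DESeq2 called 0.0293% of genes and none of the 9. The log2 fold changes ran from -0.17 for Cnp to 0.22 for Mobp, with a median of 0.03 and an edgeR adjusted p of 0.999 for each. With 3 mice in this group the SE was 0.13 for Mbp and 0.15 for Mobp. Between the same groups all 12 striatal projection neuron genes were above 0 (median 0.29) and all 6 choroid plexus genes were below 0 (median -0.70). None of these had an unadjusted p under 0.05 in edgeR. Their part in the myelin values was not tested.

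Between CK2a'(+/-) mice with and without the zQ175 allele, 1 gene of the 9 passed the test, against 0.593% of genes in either direction and 0.368% lower. Mobp was lower in zQ175:CK2a'(+/-) mice (778 to 1081 CPM, n = 5) than in CK2a'(+/-) mice (1242 to 1710 CPM, n = 3), with a log2 fold change of -0.59 ± 0.14 (SE) and an edgeR adjusted p of 0.0989. The groups did not overlap, which with the first group lower held for 4.48% of genes. Between the same groups all 12 striatal projection neuron genes were below 0 (median -0.74, 8 with an unadjusted p under 0.05 in edgeR and 2 called), as were all 7 thalamic genes (median -0.62), and all 6 choroid plexus genes were above 0 (median 0.82), with no thalamic or choroid plexus gene at such a p. Of 10 astrocyte genes 5 had an unadjusted p under 0.05 and 6 were below 0 (median -0.21). Their part in the Mobp value was not tested. DESeq2 also called Mobp (adjusted p = 0.0179), with 0.798% of genes called lower. The edgeR value lay at the edge of the threshold, and the call was lost without WT replicate 1 or 3, zQ175 replicate 2, 3 or 5, or any 1 mouse of the 2 groups compared. The fold change was -0.43 without CK2a'(+/-) replicate 2 (edgeR adjusted p = 0.454) and -0.63 without the 4 libraries high in choroid plexus genes (0.280). Mbp was at -0.25 ± 0.13 (SE, edgeR adjusted p = 0.601) and Aspa at -0.32 ± 0.21, while Mog (0.04), Mag (0.01), Cnp (0.04), Opalin (-0.08), Myrf (-0.08) and Ermn (-0.11) lay near 0.

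**Figure D2:**
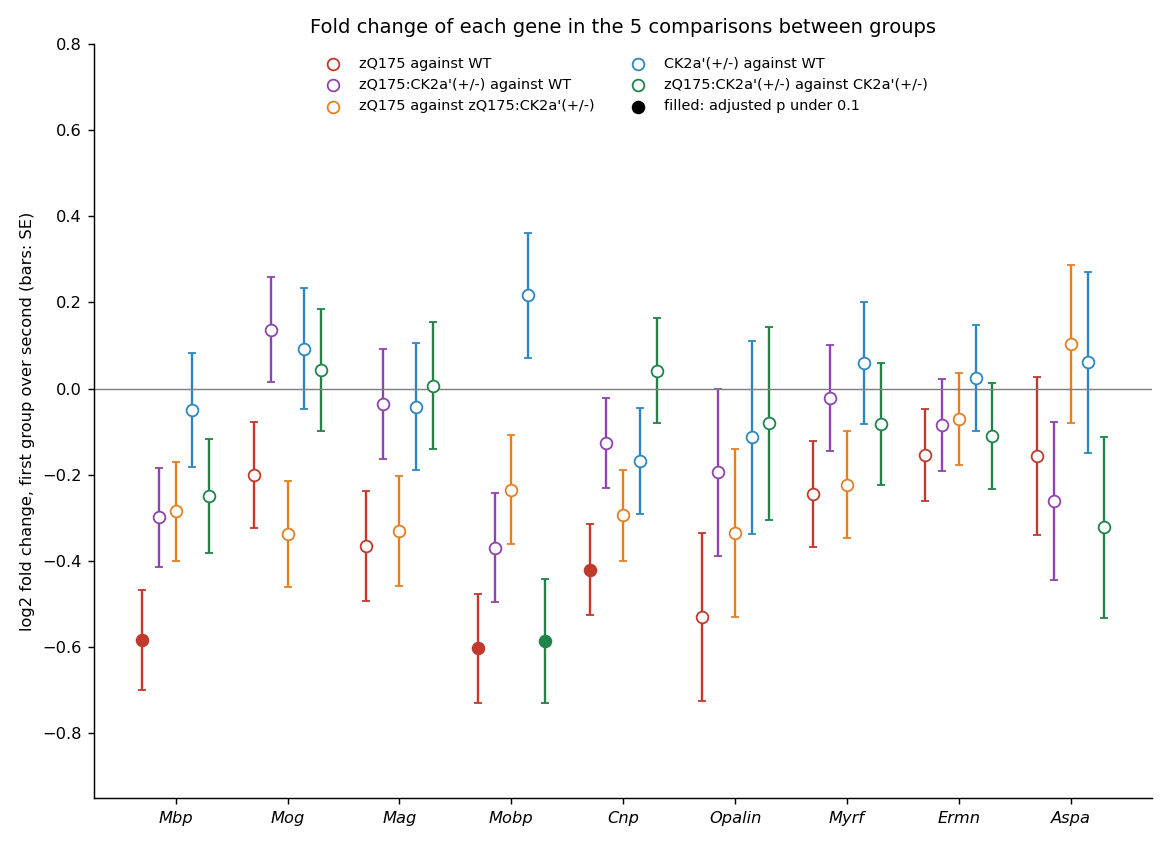
Log2 fold change (y axis, bars are SE from edgeR) of each of the 9 genes in the 5 comparisons between groups, with filled symbols where the adjusted p was under 0.1. Filled points are Mbp, Mobp and Cnp in zQ175 against WT (-0.58, -0.60 and -0.42) and Mobp in zQ175:CK2a'(+/-) against CK2a'(+/-) (-0.59).

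The interaction asks whether the zQ175 difference depended on the CK2 alpha prime genotype. None of the 9 genes passed (background 0.00478%, 1 gene, by edgeR and 0.103% by DESeq2), so the zQ175 difference was not shown to differ between mice with both CK2 alpha prime alleles and mice with 1. Only Cnp had an unadjusted p under 0.05, as 5.39% of genes did, with an interaction of 0.46 ± 0.16 (SE) on the log2 scale and an edgeR adjusted p of 0.867. Mbp stood at 0.33 ± 0.18 (SE) and Mobp at 0.02 ± 0.19. The zQ175 fold change of Mobp was -0.60 with both CK2 alpha prime alleles and -0.59 with 1, and that of Cnp was -0.42 and 0.04. In the interaction all 6 choroid plexus genes were above 0 (median 3.91, 2 with an unadjusted p under 0.05 in edgeR), 7 of 9 microglia genes were above 0 (median 0.26, 3 with such a p) and all 7 thalamic genes were below 0 (median -1.61, 0 with such a p). Of 7 cortical neuron genes 6 were below 0 (median -0.54, 2 with such a p). Of 8 endothelial and pericyte genes 4 were below 0 (median -0.10, 3 with such a p). Their part in these values was not tested.

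The mice that were high or low for 1 gene tended to be so for the others, as the map of deviations shows. WT replicate 3 was among the highest 5 of 18 mice for all 9 genes and the highest for 4. The zQ175 replicates 1 and 5 were each among the lowest 5 for 8 genes, replicate 2 for 7 and replicate 3 for 6, but replicate 4 for none, and it lay above its group median for 9 of 9. In the zQ175:CK2a'(+/-) group replicate 4 was below the group median for all 9 and the lowest of 18 for 3, and CK2a'(+/-) replicate 3 was below its group median for all 9. Summed, the 9 genes took a median of 0.456% of counts in WT (0.445% to 0.604%), 0.315% in zQ175 (0.295% to 0.440%), 0.508% in CK2a'(+/-) (0.430% to 0.562%) and 0.430% in zQ175:CK2a'(+/-) (0.325% to 0.458%). Mbp and Mobp make up most of these sums.

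**Figure D3:**
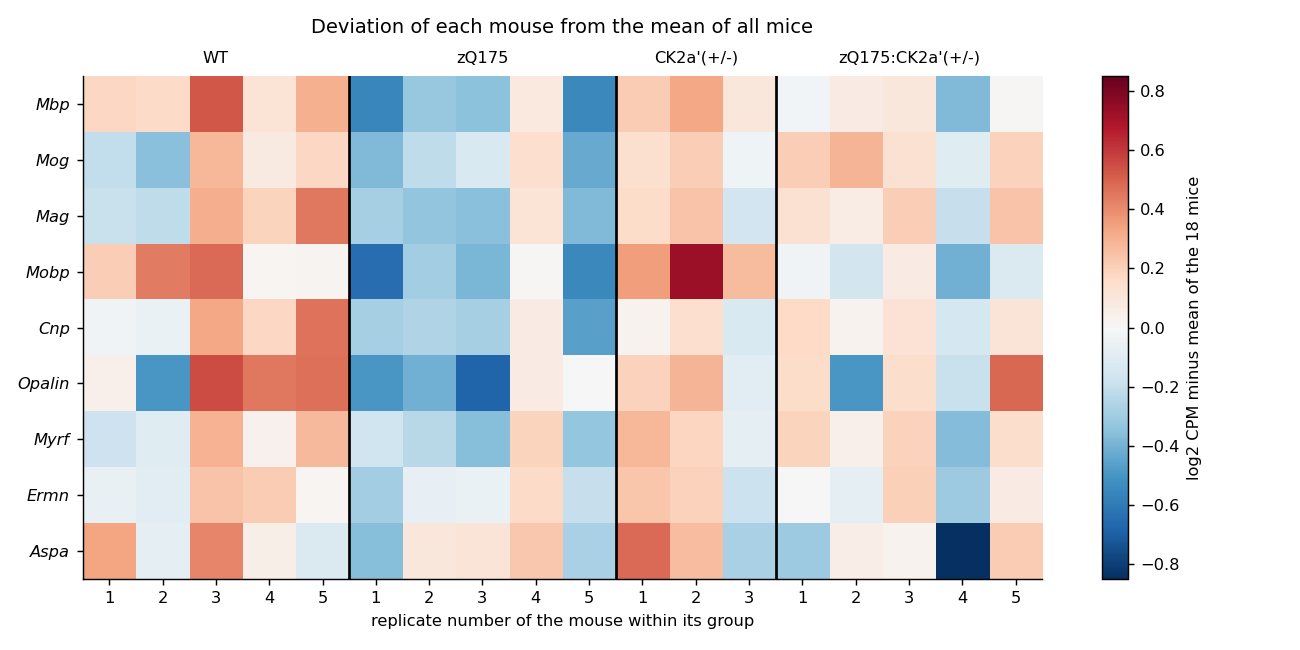
Deviation of log2 CPM from the mean of the 18 mice (colour) for each of the 9 genes (y axis) in each mouse (x axis, replicate number within its group). WT replicate 3 was among the highest 5 mice for 9 genes and zQ175 replicates 1 and 5 among the lowest 5 for 8 genes each.

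After each group's mean was taken out, Pearson's r between pairs of the 9 genes over the 18 mice ran from 0.15 to 0.95 with a median of 0.71 over 36 pairs (Spearman's rho 0.26 to 0.95, median 0.68). The points share their library, depth and dissection, so these values describe the mice and carry no test. Mag and Cnp were the closest pair (0.95) and Mobp and Opalin the least close (0.15). Mobp had the lowest median with the other 8, at 0.48 by Pearson's r and 0.46 by Spearman's rho.

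Ratios of Mbp to each of the other genes were taken within each mouse. These ratios were chosen after the values were seen and are given as a description without a test. Mbp over Mog on the log2 scale averaged 5.98 ± 0.19 (SD, n = 5) in WT and 5.58 ± 0.06 (n = 5) in zQ175, spans of 5.76 to 6.24 and 5.50 to 5.66 that did not overlap. It was 5.80 to 5.85 in CK2a'(+/-) and 5.53 ± 0.09 (n = 5) in zQ175:CK2a'(+/-), so both groups with the zQ175 allele lay below both groups without it. Mbp alone also did not overlap WT in either group with the zQ175 allele. The share of all gene pairs that separate in this way was not counted. Mbp over Myrf averaged 4.29 ± 0.13 in WT and 3.94 ± 0.15 in zQ175, with spans of 4.12 to 4.44 and 3.71 to 4.11. The spans of WT and zQ175 overlapped for the other 6 genes, among them Mag (3.72 to 4.24 and 3.58 to 3.87) and Ermn (3.98 to 4.37 and 3.73 to 4.01). Mbp over Opalin, a gene of low level, averaged 6.42 ± 0.38 in WT and 6.34 ± 0.32 in zQ175. Mbp over Mobp averaged 1.20 ± 0.20 in WT and 1.21 ± 0.05 in zQ175, as both genes were lower by about the same factor. Its span within WT was 0.90 to 1.46. In CK2a'(+/-) mice that ratio was 0.94 ± 0.14 (n = 3) and in zQ175:CK2a'(+/-) mice 1.26 ± 0.09 (n = 5). The spans of these last 2 groups, 0.78 to 1.04 and 1.19 to 1.40, did not overlap.

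**Figure D4:**
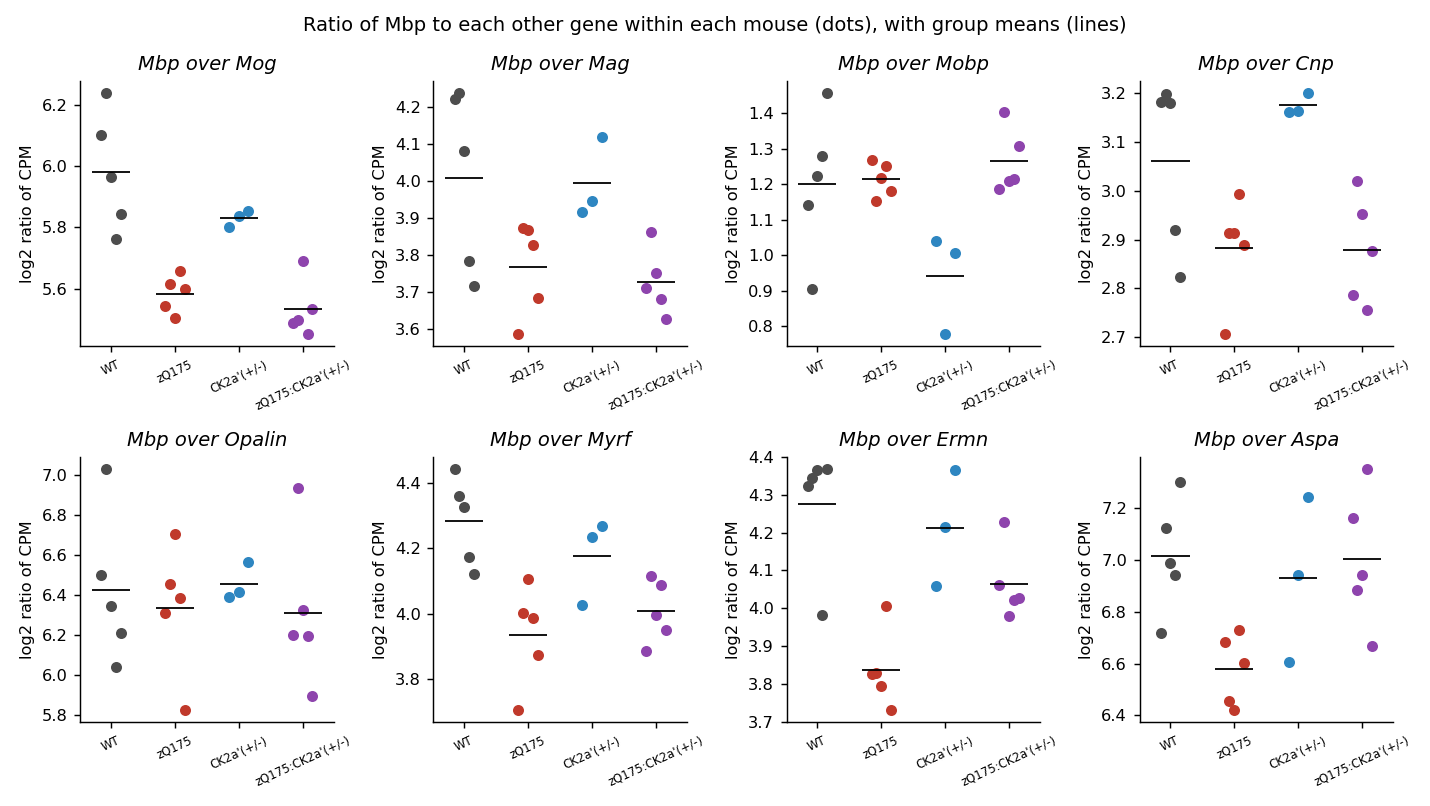
Log2 ratio of the CPM of Mbp to that of each other gene within each mouse (dots), by group, with lines at the group means; the y axes do not start at 0. For Mbp over Mog the zQ175 mice (5.50 to 5.66) and the WT mice (5.76 to 6.24) did not overlap, while Mbp over Mobp had nearly equal means (1.21 and 1.20).

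Among all genes tested, those whose log2 CPM followed the mean of the 9 most closely over the 18 mice were Plekhh1 (Pearson's r = 0.94), Pvalb (0.91), Pllp (0.90), Csrp1 (0.90), Trf (0.90), Unc5b (0.90), Tmem63a (0.90), Gpr37 (0.90), Tmbim1 (0.88) and Ndrg1 (0.88), and the most opposed were Scaper (-0.90), Myef2 (-0.82) and Appl1 (-0.80). Of a list of 35 other mature oligodendrocyte genes, 21 were among the first 100 and the median r was 0.77. The median was 0.57 for 12 genes of myelin lipid synthesis, 0.40 for 12 oligodendrocyte transcription regulators and 0.0042 for 16 genes of precursors and differentiating cells. Pvalb is otherwise known as the calcium buffer of fast-spiking interneurons.

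The other genes of the lineage are given by stage, first in zQ175 against WT. Of the 35 other mature oligodendrocyte genes, 10 were called lower and none higher, 35 were below 0 and the median was -0.42. The called genes with the lowest p were Cryab (a small heat shock protein, -0.66), Cldn11 (the claudin of myelin tight junctions, -0.67), Car2 (a carbonic anhydrase, -0.66) and Mal (a proteolipid of myelin rafts, -0.67), each with an edgeR adjusted p of 0.0442. The list holds Trf, Car2 and Enpp2, which choroid plexus also expresses. Without the 4 libraries high in choroid plexus genes none of the 35 was called in edgeR, in a fit that called 1 of 21312 genes in all. That fit had 3 WT mice, and in it Mbp, Mobp and Cnp stood at -0.52, -0.53 and -0.44. The part of choroid plexus in the values of the 35 genes was not tested.

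Earlier stages and partner genes gave no call in edgeR. Of 12 lipid synthesis genes none passed in zQ175 against WT (10 below 0, median -0.18), the lowest p belonging to Elovl7, a fatty acid elongase (-0.64, edgeR adjusted p = 0.122). None of 12 tested transcription regulators passed (median 0.04), with Olig2 at -0.46 (edgeR adjusted p = 0.179). Of these regulators 6 were above 0 and 6 below, and the highest, Tcf7l2 (1.18), is also in the list of thalamic genes. None of 16 precursor and differentiation genes passed (median 0.06), with the matrix protein gene Tnr at 0.27 (edgeR adjusted p = 0.105). None of 10 axon and myelin junction genes (Cadm3 0.18, edgeR adjusted p = 0.303) and none of 6 genes of N-acetylaspartate metabolism (Folh1 0.31, adjusted p = 0.523) passed. Of the peripheral myelin genes, Pmp2 and Egr2 had no count in any library, Prx had 0 to 13, and Pmp22, which brain cells also express, was at -0.47 (edgeR adjusted p = 0.239). Pmp2, Egr2 and Prx were thus at or near 0. DESeq2 called Elovl7, Olig2, Nkx6-2 and Tnr in zQ175 against WT. Whether the mature genes differed more than the precursor genes was not tested.

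**Figure D5:**
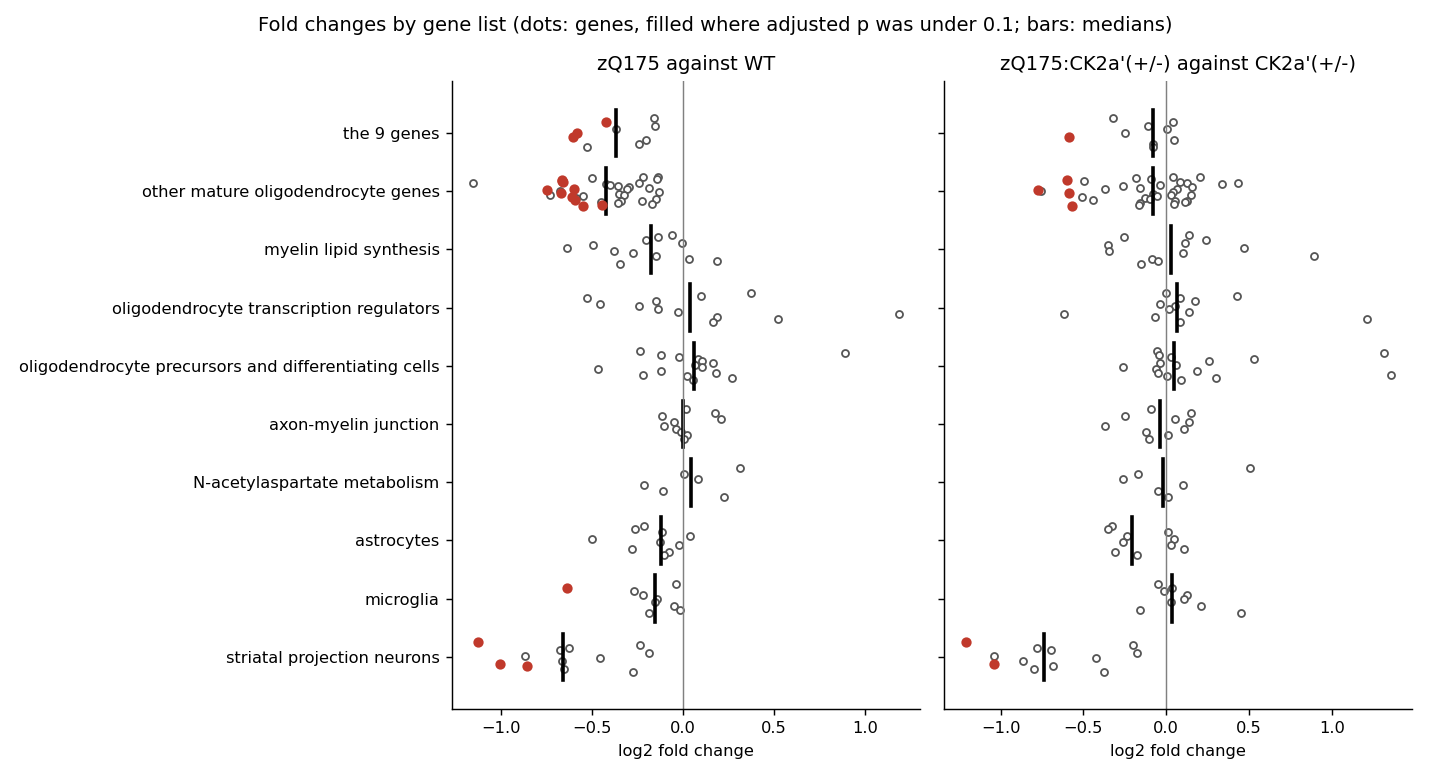
Log2 fold change (x axis) of every tested gene (dots, filled where the edgeR adjusted p was under 0.1) of the 9 genes and of 9 other lists, in zQ175 against WT (left) and zQ175:CK2a'(+/-) against CK2a'(+/-) (right), with bars at list medians. In zQ175 against WT the medians were -0.37 for the 9 genes, -0.42 for the 35 other mature oligodendrocyte genes and 0.06 for the 16 precursor genes.

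In the remaining comparisons the other mature genes gave few calls. None of the 35 passed edgeR's test in zQ175:CK2a'(+/-) against WT (26 below 0, median -0.16; Car2 -0.49, edgeR adjusted p = 0.204), in zQ175 against zQ175:CK2a'(+/-) (34 below 0, median -0.24; Cryab -0.41, adjusted p = 0.482), in CK2a'(+/-) against WT (19 below 0, median -0.08; Cryab -0.33, adjusted p = 0.999) or in the interaction (32 above 0, median 0.27; Cryab 0.74, adjusted p = 0.635). DESeq2 called Car2 (adjusted p = 0.0372) and Il33 (0.0338) in the first of these and Cryab (0.0804) in the interaction. In zQ175:CK2a'(+/-) against CK2a'(+/-), edgeR called 4 lower, namely Il33 (an alarmin cytokine, -0.77), Car2 (-0.60) and the tetraspanin gene Tspan2 (-0.57) with an edgeR adjusted p of 0.0733 each, and Mal (-0.59, 0.0905). Over all genes tested, 0.368% were called lower in that comparison. In the same comparison the 2 called striatal projection neuron genes were Adora2a (-1.21, edgeR adjusted p = 0.0733) and Penk (-1.04, 0.0989). All these calls were lost with the replicate block, without the libraries high in choroid plexus genes and at a threshold of 0.05. Without 1 library at a time the count ran from 0 to 13. In edgeR, no gene of the lipid synthesis, transcription regulator, precursor, junction or N-acetylaspartate lists passed in any of the comparisons. DESeq2 called Elovl7 in zQ175 against zQ175:CK2a'(+/-) (adjusted p = 0.0995), and in zQ175:CK2a'(+/-) against CK2a'(+/-) it called the transcription regulator Zfp488 (0.0533), Tnr (0.0672) and the junction gene Cntnap1 (0.0654).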

How the data were processed

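RNA of 18 striata was sequenced by the authors with a Takara stranded total RNA kit for low input on a NovaSeq, with all libraries on 1 lane. Per the submitters' processing notes and the study's methods, reads were trimmed (Trimmomatic, FastQC), aligned to GRCm38 with HISAT2 2.1.0 and counted per Ensembl gene with Subread 1.6.2 in the CHURP pipeline. The deposited values are raw counts of whole reads per gene, and the strand setting of the counting is not given in the sources used here. Columns were tied to groups through the study's legend for its column names, with the replicate number of the column.

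Counts were tested as deposited with edgeR 4.0.16 in R 4.3.3 (quasi-likelihood test, TMM factors, genotype as the only term, all 18 libraries sharing 1 estimate of spread, genes kept by filterByExpr). P-values were adjusted by Benjamini-Hochberg over 20914 genes and called under 0.1, and they measure the spread between mice. SEs are the log2 fold change divided by the root of its F value. DESeq2 1.42.0 with default settings, other scalings, no filter, a replicate block, Xist as a covariate, the compared groups alone, a threshold of 0.05 and leaving out each library were alternatives. CPM values use TMM library sizes, log2 CPM a prior count of 2 and RPKM the deposited gene lengths. Symbols came from a gene name table that matched 55154 of 55421 identifiers. On simulated counts with 200 genes changed by 1 on the log2 scale, zQ175 against WT over 20914 genes, edgeR recovered 59% with 7 false calls among 125. DESeq2 recovered 66% with 38 false calls among 170. The called changes of Mbp, Mobp and Cnp in zQ175 against WT (-0.58, -0.60 and -0.42) were smaller than 1, so these recovery rates do not describe them.

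The 9 genes and all other lists were chosen with earlier results of these data known. Named were the 9 genes in every comparison, and of each other list up to 4 called genes by p or else the gene with the lowest p, Csnk2a2 and the 10 most and 3 least alike genes. Some genes that this rule would name are not reported here. Of 166 listed symbols 165 were matched.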

Additional observations from a re-analysis of the deposited data

Results flagged for a closer look

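Among 30 groups of 5 mice checked for a value far from the rest (each of the 9 genes and their summed share of counts in the WT, zQ175 and zQ175:CK2a'(+/-) groups), 4 had a gap over range above the critical value of 0.71 for 5 samples. Chance flags about 1 in 20 groups. The genes vary together, so the 4 are not separate events.

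In the zQ175 group, replicate 4 stood above the others. Its Mag level was 7.44 on the log2 CPM scale (174 CPM), against 6.96 to 7.05 in the other 4 mice, a gap of 0.811 of the range. The share of all counts taken by the 9 genes was 0.440% in the same mouse and 0.295% to 0.325% in the others, a gap of 0.795 of the range.

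In the zQ175:CK2a'(+/-) group, replicate 4 stood below the others. Its Mbp level was 10.82 (1806 CPM), against 11.17 to 11.29 in the other 4 mice, a gap of 0.746 of the range. Its Myrf level was 6.73 (106 CPM), against 7.14 to 7.29, a gap of 0.733 of the range. The cause of these values was not tested.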

How the results depend on the processing

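With DESeq2 size factors in edgeR, every fold change of the 9 genes kept its direction and its side of the threshold, and with DESeq2, no filter or upper-quartile factors this held for the calls in zQ175 against WT. Without 1 library at a time, the count of the 9 genes called in zQ175 against WT ran from 0 to 5 and that of genes in the other lists (15 in all libraries) from 0 to 21. The count of the 9 was 0 with the compared groups alone and also 0 in each set chosen after seeing the data (without the libraries high in choroid plexus genes, without zQ175 replicates 1 and 5, and among libraries high or low in Xist alone, the latter with 1 WT mouse), sets with fewer mice in which 1, 0, 0 and 0 of all genes were called. With the compared groups alone it was 0 of all genes as well. The count for the other lists was 24 with DESeq2, 30 without the filter, 9 with the replicate block, 8 at a threshold of 0.05 and 0 in those smaller sets and with the compared groups alone. Cnp lost its call with total counts (adjusted p = 0.111), with Xist as a covariate and at a threshold of 0.05. Over all genes, edgeR called 230 in zQ175 against WT (81 higher, 149 lower), DESeq2 855 (404 and 451), upper-quartile factors 239 (115 and 124), no filter 451 and the block 98. Aspa turned to 0.027 (choroid plexus libraries left out), 0.013 (without zQ175 replicates 1 and 5) and 0.086 (high Xist).

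In zQ175:CK2a'(+/-) against CK2a'(+/-), the 1 call, Mobp, was lost (0 called) with upper-quartile factors (adjusted p = 0.115), total counts (0.118), the replicate block (0.360), Xist as a covariate (0.134), the choroid plexus libraries left out (0.280) and a threshold of 0.05, and without 1 library the count was 0 to 1. The other lists there (6 called) gave 13 with DESeq2, 17 without the filter, 3 with total counts, 0 with the block, 1 with Xist, 21 with the compared groups alone, 0 without the choroid plexus libraries, 10 without zQ175 replicates 1 and 5 and 0 at 0.05, and 0 to 13 without 1 library. In zQ175:CK2a'(+/-) against WT they gave 2 with DESeq2, 4 without the filter and 0 to 1 without 1 library, in zQ175 against zQ175:CK2a'(+/-) 4, 6 and 0 to 1, and in the interaction 1 with DESeq2 and 1 without the filter. The interaction could not be fitted with the compared groups alone.

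Values near 0 changed sign. Without the choroid plexus libraries these were Mbp (0.020), Myrf (-0.017) and Ermn (-0.033) in CK2a'(+/-) against WT, Opalin (0.058) in zQ175:CK2a'(+/-) against CK2a'(+/-) and Mobp (-0.10) in the interaction. Without zQ175 replicates 1 and 5 they were Ermn in zQ175 against zQ175:CK2a'(+/-) (0.028, and 0.083 among high Xist libraries) and Mobp (-0.12) and Ermn (-0.055) in the interaction. With Xist as a covariate they were Aspa (-0.012) in CK2a'(+/-) against WT, Mog (-0.019), Mag (-0.027) and Cnp (-0.0061) in zQ175:CK2a'(+/-) against CK2a'(+/-) and Mobp (-0.031) in the interaction. Without 1 library, the ranges that crossed 0 were Mag (-0.12 to 0.055) and Myrf (-0.10 to 0.068) in zQ175:CK2a'(+/-) against WT, Aspa (-0.035 to 0.20) in zQ175 against zQ175:CK2a'(+/-), Mbp (-0.11 to 0.029), Mag (-0.13 to 0.069), Myrf (-0.017 to 0.16), Ermn (-0.051 to 0.15) and Aspa (-0.11 to 0.25) in CK2a'(+/-) against WT, Mog (-0.023 to 0.10), Mag (-0.10 to 0.090), Cnp (-0.027 to 0.11), Opalin (-0.21 to 0.029) and Myrf (-0.18 to 0.0079) in zQ175:CK2a'(+/-) against CK2a'(+/-), and Mobp (-0.072 to 0.17), Ermn (-0.078 to 0.12) and Aspa (-0.35 to 0.0066) in the interaction. The causes were not tested.

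The replicate numbers did not pair the mice: over 24 same-numbered pairs the correlation of deviations from the group means ran from -0.14 to 0.12, with 2 over 0.1, and 1 of 18 libraries correlated best with its own number. With the replicate block Mbp and Mobp stayed called in zQ175 against WT (adjusted p = 0.0979 each) and Cnp did not (0.145), and Mag (0.034) and Opalin (0.083) in CK2a'(+/-) against WT and Mag (-0.056) in zQ175:CK2a'(+/-) against CK2a'(+/-) changed sign.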

Other observations

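Genes of the lineage lists that had the lowest p of their list outside the zQ175 and WT comparison, none of them called in edgeR, are given here as edgeR log2 fold changes with adjusted p. Among myelin lipid synthesis genes these were Elovl1 in zQ175:CK2a'(+/-) against WT (-0.32, adjusted p = 0.643), the elongase gene Elovl7 in zQ175 against zQ175:CK2a'(+/-) (-0.73, 0.419; DESeq2 called it, with an adjusted p of 0.0995) and in the interaction (1.11, 0.794), and Plpp2 in CK2a'(+/-) against WT (-0.78, 0.999) and zQ175:CK2a'(+/-) against CK2a'(+/-) (0.89, 0.455). Among transcription regulators Zfp488 had the lowest p in zQ175:CK2a'(+/-) against WT (0.59, 0.562), CK2a'(+/-) against WT (-0.62, 0.999) and zQ175:CK2a'(+/-) against CK2a'(+/-) (1.21, 0.191; called by DESeq2, 0.0533), Myt1 in zQ175 against zQ175:CK2a'(+/-) (0.34, 0.694) and Nkx6-2 in the interaction (0.61, 0.916).

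Among genes of precursors and differentiating cells, Pdgfra, the growth factor receptor that defines the precursors, had the lowest p in CK2a'(+/-) against WT (-0.30, adjusted p = 0.927) and in the interaction (0.31, 0.916). Tnr had it in zQ175 against zQ175:CK2a'(+/-) (0.18, 0.703) and zQ175:CK2a'(+/-) against CK2a'(+/-) (0.30, 0.169; called by DESeq2, 0.0672), and Bmp4 in zQ175:CK2a'(+/-) against WT (0.85, 0.671). Of the axon and myelin junction genes, Cntnap1, the axonal contactin-associated protein beside the node, stood at 0.37 in CK2a'(+/-) against WT (0.787), at -0.37 in zQ175:CK2a'(+/-) against CK2a'(+/-) (0.145; called by DESeq2, 0.0654) and at -0.26 in the interaction (0.916). Cadm4 (-0.23, 0.607) and Cntnap2 (-0.10, 0.883) had the lowest p of that list in zQ175:CK2a'(+/-) against WT and zQ175 against zQ175:CK2a'(+/-). In N-acetylaspartate metabolism these were Folh1 in zQ175:CK2a'(+/-) against WT (0.34, 0.633) and against CK2a'(+/-) (0.51, 0.521), Slc13a3 in zQ175 against zQ175:CK2a'(+/-) (-0.19, 0.948) and Rimklb in CK2a'(+/-) against WT (-0.23, 0.999) and the interaction (0.32, 0.936).

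Among the cell type lists, the genes with the lowest p in zQ175:CK2a'(+/-) against WT were Adora2a (-0.93, edgeR adjusted p = 0.258), Neurod2 (1.15, 0.607), Calb2 (-1.59, 0.608), Gja1 (-0.27, 0.433), C1qa (-0.18, 0.789), Vtn (-0.18, 0.710) and Otx2 (0.35, 0.967). In zQ175 against zQ175:CK2a'(+/-) they were Slc17a7 (2.24, 0.328; called by DESeq2), Calb2 (2.71, 0.597), S100b (-0.32, 0.738), C1qa (-0.46, 0.597), Rgs5 (0.23, 0.862) and Ttr (-6.92, 0.597; called by DESeq2). In CK2a'(+/-) against WT they were Pde10a (0.44), Neurod2 (-2.10), Rora (0.56), Slc1a2 (0.25), Siglech (0.29), Flt1 (0.47) and Ttr (-1.25), with adjusted p of 0.787 for Flt1 and 0.999 for the rest. In zQ175:CK2a'(+/-) against CK2a'(+/-), beside the striatal genes called, they were Neurod2 (3.25, 0.145; called by DESeq2, 0.0296), Synpo2 (-0.74, 0.719), Aldoc (-0.35, 0.196), Tmem119 (0.45, 0.521), Flt1 (-0.36, 0.334) and Otx2 (0.96, 0.892). In the interaction they were Pde10a (-0.20, 0.983), Slc17a7 (-2.51, 0.811), Rora (-1.11, 0.916), S100b (0.39, 0.916), C1qa (0.67, 0.832), Flt1 (-0.62, 0.811) and Ttr (8.17, 0.916). Pmp22 lay between -0.35 and 0.37 in these comparisons (adjusted p from 0.830 to 0.999).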
